A study of Bos taurus with 43 samples.

Results

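The mitochondrial respiratory chain and ATP synthase were represented on a bovine oligonucleotide array by 84 of the 21475 gene probes. The members were chosen by name: 68 probes carried a gene name of complex I (NDUF), complex II (SDHA to SDHD), complex III (UQCR), complex IV (COX4 to COX8) or ATP synthase (ATP5), and 16 more were found through the array's own description of the gene. By complex there were 38 probes for complex I, 4 for complex II, 7 for complex III, 18 for complex IV and 17 for ATP synthase, called complex V here. The complex IV probes MT-CO1, MT-CO2 and MT-CO3 measured transcripts of the mitochondrial genome, and the others measured nuclear genes. Of the 84 probes, 82 passed the filter on dim probes, which took out a probe that fell below a log2 signal of 4 on 30 or more of the 43 arrays. The 2 that did not pass were LOC615540, described as similar to NDUFB8, and LOC517777, described as similar to the f subunit of ATP synthase.

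The respiratory chain passes electrons from NADH through complex I, and from succinate through complex II, to complex III and then to complex IV, which reduces oxygen to water. Complexes I, III and IV pump protons across the inner mitochondrial membrane, and ATP synthase uses their return to make ATP. Complex II pumps no protons and is also an enzyme of the tricarboxylic acid cycle. Skeletal muscle is rich in these complexes, its slow, oxidative fibres more so than its fast, glycolytic ones, and several subunits of complex IV exist as a heart and muscle isoform and a ubiquitous one.

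The samples were biceps brachii muscle of 43 cattle, all stated to be male, with 1 array per animal, in a study that asked whether muscle expression could separate animals given corticosteroids from untreated ones. The positive group held 4 commercial animals (S21, S54, S56 and S57) suspected of corticosteroid treatment, which were positive by thymus histology and had dexamethasone in urine; the unknown group held 21 commercial animals of unknown treatment. The commercial animals were 12 to 24 months old, and most, but not all, were Charolais, Limousine or a cross of these, with no breed given for single animals. There were 2 sets of untreated controls: 5 Charolais and Limousine cross-breed animals of 18 months from an earlier controlled experiment (K7, K8, K10, K11 and K12), and 13 Holstein animals of 13 to 18 months. No label gave a dose, a drug or a duration for the animals suspected of treatment, and each animal counts as 1 replicate.

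Several groups were not matched in how and when their arrays were scanned. The cross-breed control arrays came from scanners 1 and 2 and scan days 1 to 3, and every other array came from scanner 3 on later days. The positive arrays shared 2 slides and scan day 6 with 4 unknown animals, and the Holstein arrays were scanned last, on days 10 to 13. The scanner images of the cross-breed controls were also read with software versions 9.1.3.1 and 9.5.3.1, and those of all other animals with version 9.5.1.1. Scanner, software version and scan day therefore cannot be told apart from group in any comparison with the cross-breed controls. The share of gene spots well above background was 74.9% to 89.4% on the positive arrays, 62.9% to 73.6% on the cross-breed control arrays, 62.3% to 73.2% on the Holstein arrays and 40.2% to 97.3% on the unknown arrays. The 10 muscle marker probes, among them ACTA1 (skeletal actin), CKM (muscle creatine kinase) and MB (myoglobin), all passed the filter.

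Signals of genes that mark sex and position in the body went against some labels. ZFY, a gene on the Y chromosome, ranged in log2 signal from 5.47 to 7.27 in the positive animals, all controls and 10 unknown animals, but 2.84 to 4.53 in the other 11 unknown animals, although all were stated to be male. Those 11 animals were the unknown animals scanned on days 4 and 5, and the 10 others were scanned on days 6 to 9. HOXA9, a gene of limb and trunk position, ranged from 10.31 to 11.68 on the log2 scale in both control sets and 10.99 to 11.38 in 5 unknown animals of scan day 5, against 1.78 to 5.74 in the positive animals and the 16 other unknown animals. HOXC6, a gene of another HOX cluster, had 9.74 to 10.82 in the positive animals and those 16, 6.79 to 8.21 in the 5, and 3.19 to 5.90 in the controls. Positive animals and controls thus differed in position genes as well as in treatment status, and the part of sampling site in the results was not tested. Levels of the unknown animals are also given by scan day for the complexes and for several members.

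Signal by complex was summarised for each animal as the median normalized log2 signal over the complex's tested probes. For complex IV, the 4 positive animals had 15.75, 15.44, 15.48 and 15.60, and the 5 cross-breed controls had 15.002, 14.79, 14.86, 14.80 and 14.93. The Holstein controls had a lowest, median and highest value of 14.95, 15.38 and 15.81, and the unknown animals 14.50, 14.94 and 15.78. All positive animals were above all cross-breed controls, and they lay within the Holstein range.

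For complex I, the positive animals had 15.07, 14.76, 14.79 and 14.94 and the cross-breed controls 14.45, 14.09, 14.38, 14.24 and 14.37, with no overlap. The group means were 14.89 ± 0.14 (SD, n = 4) and 14.31 ± 0.14 (SD, n = 5), against 14.67 ± 0.24 in the Holsteins (SD, n = 13). Complex III gave 15.64 ± 0.09 in the positive animals, 14.80 ± 0.16 in the cross-breed controls and 15.30 ± 0.25 in the Holsteins. Its positive range was 15.53 to 15.72 and its cross-breed range 14.61 to 14.96, again with no overlap.

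Complex V differed from the others in the order of the groups. Its level was 14.97 ± 0.18 in the positive animals, 14.99 ± 0.19 in the unknown animals (SD, n = 21; 15.02 ± 0.16 in the 10 of days 6 to 9 and 14.96 ± 0.23 in the 11 of days 4 and 5), 15.10 ± 0.21 in the Holsteins and 14.43 ± 0.12 in the cross-breed controls. The first 3 groups overlapped one another, and all of their animals were above the highest cross-breed control, at 14.50. Complex II had the narrowest spread between groups, from 15.65 ± 0.14 in the cross-breed controls to 15.98 ± 0.11 in the positive animals. That order of complex II turned over with another normalization, loess on every pair of arrays, where the positive animals lay -0.20 and the cross-breed controls 0.02 from the mean of all animals.

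Some animals were high or low in every complex. S21 was the highest positive animal in all 5 complexes and C18 the lowest Holstein in all 5. K7 was the highest cross-breed control in complexes I to IV, and animal 270 the lowest unknown animal in complexes I, III, IV and V.

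**Figure D1:**
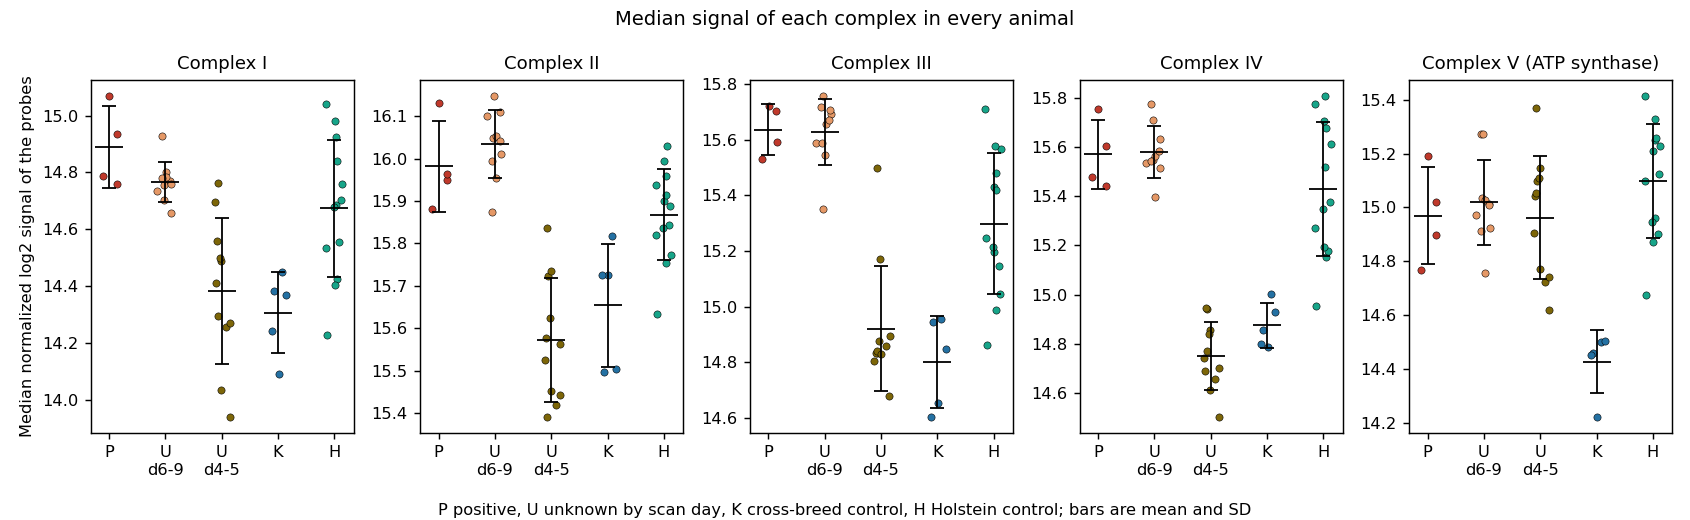
Median normalized log2 signal of the tested probes of each complex (vertical axes) for every animal, by group with the unknown animals split by scan day (horizontal axis), and bars for mean and SD. For complex IV the 4 positive animals lie at 15.44 to 15.75 and the 5 cross-breed controls at 14.79 to 15.002, while the unknown animals span 14.50 to 15.78.

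Respiratory chain and ATP synthase transcripts were mostly higher in the positive animals than in the cross-breed controls. Of 82 tested probes, 55 were called higher and 3 lower (limma, adjusted p under 0.05 over all 16360 tested probes). Over all tested probes, 25.5% were called higher and 26.3% lower in the same comparison. The median log2 change of the members was 0.63, and that of all tested probes was -0.03. The called change was at least 2-fold in 13 of the 55, and 14.4% of all tested probes were called higher by at least 2-fold. In 49 members every positive animal was above every cross-breed control, and 21.7% of all tested probes showed this. With loess on every pair of arrays, which moved the median of all probes to -0.27, 39 members were called higher and 14 lower (21.2% and 37.1% of all probes), and with no normalization the split was 1 higher to 3 lower (7.21% and 53.1% of all probes) as the median of all probes moved to -1.08. In whole muscle, a change in the share of a cell type and a change in the RNA per cell cannot be told apart.

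By complex, 25 of 37 complex I probes were called higher and 1 lower (median log2 change 0.56), and 16 of 18 complex IV probes higher and 1 lower (median 0.86). Complex III had 5 of 7 higher and 1 lower (median 0.64), complex V 8 of 16 higher (median 0.50), and complex II 1 of 4 higher (median 0.16), with 0 lower in either, also at an unadjusted p under 0.05. Of the 55 members called higher, 22 were called higher in each of the 20 settings tried, unnormalized values apart, and none of the 3 called lower was called lower in each.

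**Figure D2:**
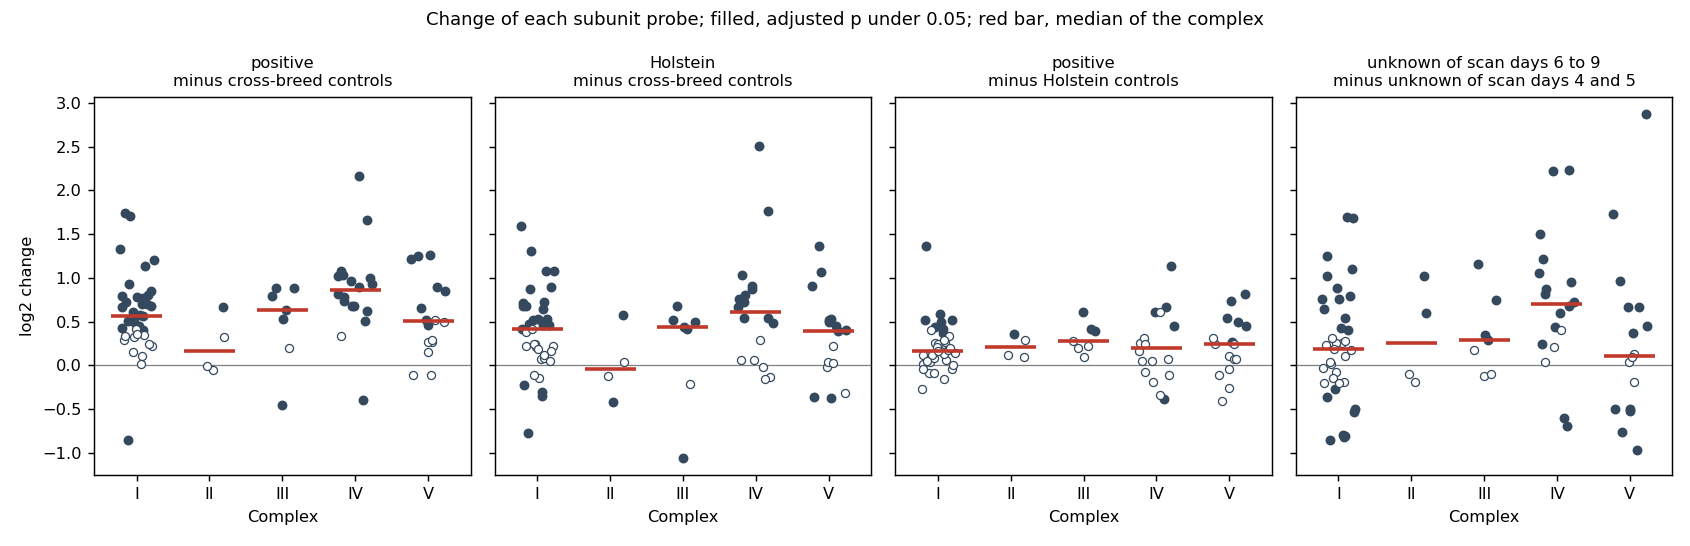
Log2 change (vertical axis) of each tested member probe by complex (horizontal axis) in 4 comparisons, with called probes filled and the median of each complex as a bar. In positive animals against cross-breed controls the complex medians run from 0.16 for complex II to 0.86 for complex IV.

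Complex I has a core of subunits that carry the flavin, the iron-sulfur clusters and the proton channels, and a shell of accessory subunits. Of the 7 nuclear core probes, 2 were called higher in positive animals against cross-breed controls (median 0.35) against 21 of 27 accessory probes (median 0.61). NDUFS3, a core subunit of the peripheral arm, was 1 of the 2, at 0.80 ± 0.13 (SE), adjusted p = 0.000677. NDUFS7, which holds an iron-sulfur cluster near the quinone site, was the other, at 0.40 ± 0.15 (SE), adjusted p = 0.046. The difference between core and accessory subunits was not tested.

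The core subunits NDUFS1, NDUFV1 and NDUFV2 were not called. NDUFS1, the largest subunit of the peripheral arm and a carrier of iron-sulfur clusters, was at 11.77, 11.73, 11.57 and 11.86 in the positive animals and 11.53, 11.27, 11.55, 10.91 and 11.35 in the cross-breed controls. The groups did not overlap, but the change of 0.41 ± 0.16 (SE), adjusted p = 0.0539, missed the threshold. NDUFV1, which binds NADH and the flavin, gave 0.11 ± 0.16 (SE), adjusted p = 0.587, and its partner NDUFV2 gave 0.15 ± 0.14 (SE), adjusted p = 0.404. With loess on every pair of arrays NDUFV1 (-0.42, adjusted p = 0.00428) and NDUFV2 (-0.49, adjusted p = 0.00743) turned sign and were called lower.

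Among accessory subunits NDUFC1, a small subunit of the membrane arm, changed most. Its log2 signal was 13.88, 13.63, 13.32 and 13.70 in the positive animals and 11.77, 11.70, 12.28, 11.72 and 12.13 in the cross-breed controls. The lowest positive animal was above the highest cross-breed control, and the change was 1.71 ± 0.18 (SE), adjusted p = 3.91e-05, or 3.27-fold. In the Holsteins, NDUFC1 had a lowest, median and highest value of 12.50, 13.22 and 13.87, and in the unknown animals 12.85, 13.55 and 14.04 (13.37, 13.61 and 14.04 on days 6 to 9, and 12.85, 13.27 and 13.80 on days 4 and 5), so every animal outside the cross-breed group was above that group.

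NDUFA5, an accessory subunit of the peripheral arm, was at 14.52, 14.24, 14.16 and 14.39 in the positive animals and 13.08, 12.96, 13.12, 12.99 and 12.88 in the cross-breed controls, a change of 1.33 ± 0.13 (SE), adjusted p = 2.87e-05. NDUFB8, a membrane arm subunit often used as a marker of assembled complex I, was at 15.88, 15.75, 15.55 and 15.74 against 15.04, 14.99, 14.92, 14.82 and 14.65, a change of 0.85 ± 0.14 (SE), adjusted p = 0.000618. Neither gene overlapped between the 2 groups. NDUFB2 (1.21) was the other accessory probe past 2-fold, and NDUFB11 (log2 change 0.01, adjusted p = 0.957) had the smallest change of the accessory probes.

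NDUFA4 carries a complex I name but is now known as a subunit of complex IV, and NDUFA4L2 is its paralog, known as a hypoxia-induced gene. NDUFA4 was at 17.09, 16.99, 16.90 and 17.02 in the positive animals and 16.20, 16.11, 15.64, 15.81 and 15.53 in the cross-breed controls, and NDUFA4L2 at 9.75, 8.77, 9.75 and 9.96 and 7.75, 7.92, 7.70, 7.82 and 7.85. Neither overlapped. The log2 changes were 1.14 ± 0.17 (SE), adjusted p = 0.000314, for NDUFA4 and 1.75 ± 0.23 (SE), adjusted p = 0.000138, for NDUFA4L2, the second largest change of any member. The NDUFA4L2 signal ranged over 7.37 to 9.31 in Holsteins and 6.40 to 10.36 in unknown animals (8.84 to 10.36 on days 6 to 9 and 6.40 to 9.33 on days 4 and 5), and one of its positive values, that of S54, lay within the Holstein range. LOC617191, a predicted gene described as like a complex I subunit, was 1 of the 3 members called lower, at -0.86 ± 0.21 (SE), adjusted p = 0.0064, and its sign turned with loess on every pair of arrays (0.79). LOC617191 was well above background on 42 of the 43 arrays.

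In complex II a single subunit was called. SDHB, the iron-sulfur subunit, was at 16.74, 16.48, 16.64 and 16.67 in the positive animals and 16.23, 16.08, 15.68, 16.13 and 15.71 in the cross-breed controls, without overlap, a change of 0.67 ± 0.16 (SE), adjusted p = 0.00555. SDHA, the flavoprotein that oxidises succinate, was at 17.21, 17.09, 17.17 and 17.18 and 17.45, 17.33, 17.02, 17.28 and 17.02. These values overlapped, and its change was -0.05 ± 0.14 (SE), adjusted p = 0.773, which turned to 0.30 and a call (adjusted p = 0.0485) with scaling to the 75th percentile. The membrane anchors SDHC (-0.01 ± 0.13 (SE), adjusted p = 0.947) and SDHD (0.33 ± 0.17 (SE), adjusted p = 0.128) were not called either.

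In complex III, 1 of the 2 core proteins was called. UQCRC2 was at 13.28, 12.97, 12.68 and 12.93 in positive animals and 12.35, 12.05, 12.19, 11.75 and 12.09 in cross-breed controls, a change of 0.88 ± 0.17 (SE), adjusted p = 0.00175. UQCRC1 gave 0.19 ± 0.14 (SE), adjusted p = 0.293. With loess on every pair of arrays UQCRC1 turned to -0.23 and was called lower (adjusted p = 0.024). UQCRFS1, the Rieske iron-sulfur protein that hands electrons to cytochrome c1, gave 0.52 ± 0.19 (SE), adjusted p = 0.0409. The small subunits UQCRH (0.79), UQCR, now UQCR11 (0.88), and UCRC, now UQCR10 (0.64), were called higher, and UQCRB, which lies near the quinone site, was called lower, at -0.45 ± 0.15 (SE), adjusted p = 0.0242. UQCRB was well above background on 42 of the 43 arrays.

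Complex IV had the largest median change. COX7A2, the ubiquitous isoform of subunit VIIa, changed most of all members: its log2 signal was 12.63, 12.05, 12.07 and 12.50 in the positive animals and 10.12, 10.21, 10.39, 10.04 and 10.00 in the cross-breed controls. The 2 groups were 4.48-fold apart, at 2.16 ± 0.17 (SE), adjusted p = 7.13e-06. The Holsteins had a lowest, median and highest value of 11.85, 12.67 and 13.46 and the unknown animals 11.14, 12.04 and 13.23 (11.76, 12.48 and 13.23 on days 6 to 9, and 11.14, 11.95 and 12.43 on days 4 and 5), so that the cross-breed controls were below all other animals. COX7A1, the heart and muscle isoform of the same subunit, was at 17.31, 17.06, 17.16 and 17.19 against 16.62, 16.18, 16.04, 16.30 and 16.13, also without overlap, and changed less, by 0.93 ± 0.15 (SE), adjusted p = 0.000603.

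The 3 subunits encoded in mitochondrial DNA form the catalytic core of complex IV. MT-CO1, which holds the site where oxygen is reduced, was at 17.56, 17.55, 17.86 and 17.55 in positive animals and 16.80, 16.56, 16.29, 16.88 and 16.25 in cross-breed controls, a change of 1.07 ± 0.17 (SE), adjusted p = 0.000565. MT-CO2, which takes electrons from cytochrome c, gave 0.82 ± 0.20 (SE), adjusted p = 0.0065, and MT-CO3 gave 0.62 ± 0.17 (SE), adjusted p = 0.0114. None of the 3 overlapped between these groups. MT-CO2 had a saturated spot on 2 arrays and MT-CO1 and MT-CO3 on 1 each.

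The nuclear subunits of complex IV were called higher for 13 of 15 probes. COX5A, a subunit of the matrix side, was at 16.34, 16.16, 16.05 and 16.16 against 15.46, 15.26, 15.07, 14.95 and 15.06, a change of 1.02 ± 0.15 (SE), adjusted p = 0.000277. COX5B, the zinc-binding subunit next to it, went the other way and was the only complex IV probe called lower. COX5B had 14.81, 14.57, 14.23 and 14.61 in the positive animals and 15.02, 15.002, 14.86, 14.86 and 15.03 in the cross-breed controls, so each positive animal was below each control, by -0.40 ± 0.15 (SE), adjusted p = 0.0426. COX4, now COX4I1, the largest nuclear subunit, gave 0.33 ± 0.16 (SE), adjusted p = 0.106. With loess on every pair of arrays COX4 turned to -0.39 and was called lower (adjusted p = 0.0138).

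Muscle and testis isoforms were among the nuclear complex IV subunits called higher. COX6A2, the heart and muscle isoform of subunit VIa, gave 0.67 ± 0.15 (SE), adjusted p = 0.00312. COX6B2, known as a testis isoform of subunit VIb, was at 11.92, 11.42, 11.24 and 11.14 against 10.24, 10.34, 9.0997, 9.84 and 9.36, a change of 1.66 ± 0.28 (SE), adjusted p = 0.000752, and its ubiquitous partner COX6B, now COX6B1, gave 0.99 ± 0.17 (SE), adjusted p = 0.000865. The probe named COX8 gave 1.03 ± 0.12 (SE), adjusted p = 9.06e-05, and LOC615757, described as like subunit VIII, gave 0.78 ± 0.15 (SE), adjusted p = 0.00157. The array describes COX8 as the heart form while a current gene table pairs that probe with COX8A and LOC615757 with COX8B, so the isoforms behind these 2 probes are uncertain. COX6C (0.96), COX7B (0.67), COX7C (0.73) and COX7A2L (0.51), the last a factor of supercomplex assembly, were also called higher.

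ATP synthase has a soluble F1 head that makes ATP, a membrane ring of c subunits that turns, a peripheral stalk that holds the head, and small membrane subunits that link the enzyme in pairs. In the F1 head, 1 of 5 probes was called higher. This was ATP5B, the catalytic beta subunit, at 17.50, 17.34, 17.24 and 17.32 against 17.14, 17.03, 16.77, 16.74 and 16.50, a change of 0.52 ± 0.16 (SE), adjusted p = 0.0204. With loess on every pair of arrays ATP5B turned to -0.39 and was called lower (adjusted p = 0.029). ATP5A1, the alpha subunit, gave -0.12 ± 0.15 (SE), adjusted p = 0.535, and ATP5C1, the gamma subunit of the rotor, gave 0.15 ± 0.14 (SE), adjusted p = 0.4. With loess over all array pairs ATP5C1 turned to -0.18 and was called (adjusted p = 0.0337). Neither was called in the reported fit, nor were ATP5D (0.26) and ATP5E (0.26).

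Calls in ATP synthase lay mostly in the peripheral stalk and the small membrane subunits. ATP5O, the stalk subunit that binds the top of F1, was at 13.74, 13.48, 13.37 and 13.57 against 12.62, 12.30, 12.26, 12.11 and 12.35, and ATP5J, coupling factor 6, at 15.10, 14.77, 14.66 and 14.76 against 13.66, 13.48, 13.75, 13.47 and 13.54. Neither overlapped, and the changes were 1.21 ± 0.15 (SE), adjusted p = 9.97e-05, and 1.25 ± 0.14 (SE), adjusted p = 6.35e-05. ATP5H (0.46) was also called higher in the stalk, and ATP5F1, subunit b, was not (0.49 ± 0.24 (SE), adjusted p = 0.109). Of the small membrane subunits, ATP5L, subunit g, gave 1.26 ± 0.17 (SE), adjusted p = 0.000165, and ATP5I, subunit e, gave 0.85 ± 0.14 (SE), adjusted p = 0.00052.

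The c subunit is made from 3 genes that encode the same mature protein with different targeting sequences. ATP5G1 was called higher, at 0.89 ± 0.15 (SE), adjusted p = 0.000717, with 17.27, 16.84, 16.73 and 17.002 against 16.21, 16.001, 16.08, 16.15 and 15.89 and no overlap. ATP5G2 gave -0.11 ± 0.13 (SE), adjusted p = 0.496, and ATP5G3 gave 0.29 ± 0.14 (SE), adjusted p = 0.101. So 1 of the 3 genes was called, and the differences between the genes were not tested.

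**Figure D3:**
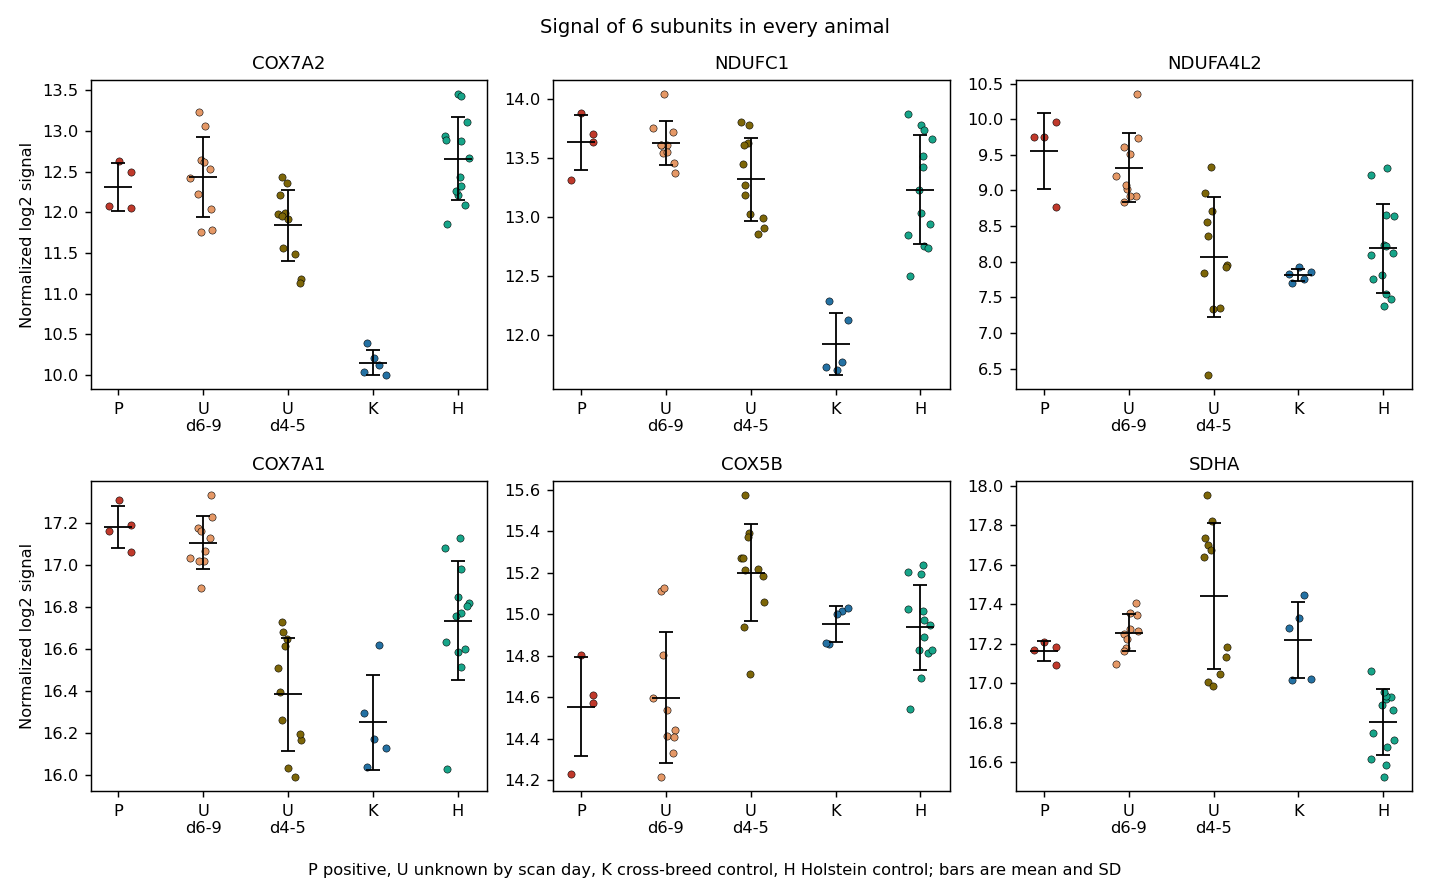
Normalized log2 signal (vertical axes) of 6 subunits for every animal by group, the unknown animals split by scan day (horizontal axis), with bars for mean and SD. COX7A2 lies at 10.00 to 10.39 in the 5 cross-breed controls and at 12.05 to 12.63 in the 4 positive animals, and the Holsteins span 11.85 to 13.46.

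The 2 sets of untreated controls also differed from each other. In Holsteins against cross-breed controls, 45 of 82 members were called higher and 8 lower, where 23.9% and 24.4% of all tested probes were. The median change of the members was 0.43 and that of all tested probes 0.01. With scaling to the 75th percentile 51 members were called higher and 2 lower (18.3% and 29.3% of all probes), and the member median was 0.78 once the shift of all probes was taken off. With no normalization the split was 4 higher to 24 lower (2.43% and 63.6% of all probes), as the median of all probes moved to -1.04, and with loess on every pair of arrays it was 32 to 12 (23.9% and 22.8% of all probes). This comparison shares its control animals with the one before, so the members' values in the 2 are given side by side and their likeness was not tested.

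COX7A2 was again the member that changed most, at 2.51 ± 0.23 (SE), adjusted p = 1.69e-07, 5.68-fold. COX6B2 (1.76 ± 0.22 (SE), adjusted p = 6e-06) and NDUFA5 (1.59 ± 0.16 (SE), adjusted p = 6.02e-07) followed. In the positive animals against the same controls, COX6B2 had changed by 1.66 and NDUFA5 by 1.33. All Holsteins were above all cross-breed controls for COX7A2, COX6B2 and NDUFA5.

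UQCRB was called lower in the Holsteins, with a lowest, median and highest value of 7.20, 7.93 and 8.47 against 8.94, 9.11, 9.095, 8.66 and 8.90. No Holstein reached the lowest cross-breed control, and the change was -1.06 ± 0.17 (SE), adjusted p = 8.31e-05. LOC617191 (-0.77), SDHA (-0.42), ATP5G2 (-0.37), ATP5A1 (-0.36), NDUFB11 (-0.35), NDUFV1 (-0.31) and NDUFA9 (-0.22) were the other members called lower. SDHA, ATP5G2, ATP5A1 and NDUFV1 took the opposite sign when arrays were scaled to their 75th percentile, relative to the median of all probes.

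The complex IV subunit COX4 and the catalytic ATP5B were not called in Holsteins. COX4 gave 0.06 ± 0.12 (SE), adjusted p = 0.686, and ATP5B gave -0.03 ± 0.11 (SE), adjusted p = 0.872. With scaling to the 75th percentile ATP5B turned to 0.52 and was called (adjusted p = 0.0382). The members called higher in Holsteins included SDHB (0.58), UQCRC2 (0.68), MT-CO1 (1.03), ATP5J (1.36) and ATP5O (0.90). COX6A2 gave 0.06 ± 0.13 (SE), adjusted p = 0.717, and COX5B gave -0.02 ± 0.11 (SE), adjusted p = 0.922. In unnormalized values COX5B was at 0.37 relative to the shift of all probes, and negative before that shift was taken off.

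The positive animals were then set against the Holstein controls, a comparison chosen after the data were seen because all of these arrays came from scanner 3. Of 82 members, 22 were called higher and 1 lower, where 17.5% and 18.7% of all tested probes were. The median change of the members was 0.20 and that of all tested probes -0.05. The 23 calls became 12 without S21 (11 higher and 1 lower, with 14.2% and 14.5% of all probes) and 14 without S57, all higher (14.4% and 14.6% of all probes). They became 11 when all 43 arrays were fitted together, all higher, where 11.3% of all probes were called higher and 12.4% lower. Without normalization 2 were higher and 1 lower (12.3% and 7.90% of all probes), and with loess over all array pairs 23 were higher and 13 lower (19.9% and 38.5% of all probes, whose median was -0.29). With scaling to the 75th percentile, which moved the median of all probes to 0.20, 13 members were called, all higher (28.5% of all probes were called higher and 8.66% lower), and the member median relative to that shift turned to -0.0037. Scan day and the position genes HOXA9 and HOXC6 differed between these groups too. Breed and exact age were not given for single positive animals, so a difference in these could not be checked.

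NDUFA4L2 changed most in positive animals against Holsteins, at 1.37 ± 0.33 (SE), adjusted p = 0.00391. COX6B followed with 8.98, 8.55, 8.88 and 9.18 in the positive animals and a lowest, median and highest value of 7.10, 7.82 and 8.39 in the Holsteins, which did not overlap. Its change was 1.13 ± 0.20 (SE), adjusted p = 0.000374. ATP5F1 gave 0.81 ± 0.28 (SE), adjusted p = 0.0311, and COX5B, the only member called lower, gave -0.38 ± 0.13 (SE), adjusted p = 0.0332. The 4 members ATP5L, COX7A2L, NDUFA8 and NDUFA9 were called higher in each of the 15 settings tried, unnormalized values apart.

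Catalytic and core subunits were among the members called higher against Holsteins. SDHA gave 0.36 ± 0.11 (SE), adjusted p = 0.015, UQCRC1 gave 0.41 ± 0.11 (SE), adjusted p = 0.00921, ATP5B gave 0.54 ± 0.11 (SE), adjusted p = 0.000845, and NDUFV1 gave 0.42 ± 0.13 (SE), adjusted p = 0.0177. With loess on every pair of arrays SDHA (-0.40, adjusted p = 0.000478) and ATP5B (-0.17, adjusted p = 0.0129) turned sign and were called lower. The muscle isoforms COX6A2 (0.61) and COX7A1 (0.45) were called higher as well, COX7A1 with the sign turned under that normalization, while COX7A2 (-0.34 ± 0.26 (SE), adjusted p = 0.319) was not. MT-CO1, MT-CO2 and MT-CO3 changed by 0.05, 0.16 and 0.07 and were not called.

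In complexes I to IV the mean level over all 21 unknown animals lay below that of the positive animals and above that of the cross-breed group, but the sets by scan day did not keep this order. On days 6 to 9 and on days 4 and 5 the means were 14.77 and 14.38 in complex I, 16.03 and 15.57 in complex II, 15.63 and 14.92 in complex III and 15.58 and 14.75 in complex IV. In complexes II and IV the later days were thus above the positive mean and the earlier days below the cross-breed mean, with these differences not tested. In complex IV their SD was 0.44, against 0.27 in the Holsteins, and in complex V 0.19 against 0.21. Against the cross-breed controls, 25 of 82 members were called higher and none lower, where 11.2% and 10.9% of all tested probes were, and 2 members had an unadjusted p under 0.05 in the lower direction. The median change was 0.31, and COX7A2 (1.97 ± 0.25 (SE), adjusted p = 4.44e-06), NDUFC1 (1.54 ± 0.17 (SE), adjusted p = 6.15e-07) and NDUFA5 (1.12 ± 0.21 (SE), adjusted p = 0.000487) had the largest changes among the called members. ATP5F1, which was not called, gave -1.25 ± 0.68 (SE), adjusted p = 0.195. With no normalization 2 members were called higher and 11 lower (0.966% and 39.3% of all probes). With loess on every pair of arrays 21 were called higher and 2 lower (7.3% and 9.96%). In the reported fit, adipocyte probes were called higher for 3 of 4, fast fibre probes lower for 2 of 8 and muscle probes lower for 5 of 10. None of these lists had calls the other way, and their part in the member changes was not tested. Leaving out the 11 animals of scan days 4 and 5, whose ZFY signal was low, gave 57 members higher and 2 lower, with 24.4% and 24.9% of all tested probes, and a median change of 0.54, with COX7A2 at 2.28, NDUFC1 at 1.70 and NDUFA5 at 1.52. The 5 animals with a HOXA9 signal in the control range gave 22 members higher and 17 lower, with 23.2% and 22.2% of all tested probes, and a median of -0.08.

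The unknown animals of scan days 6 to 9 were therefore compared with those of days 4 and 5, again a comparison chosen after the data were seen. Of 82 members, 39 were called higher in the 10 animals of days 6 to 9 and 15 lower, where 26.1% and 29.5% of all tested probes were. In 17 members every animal of the later days was above every animal of the earlier days, and in 4 members below, while 6.23% and 5.45% of all tested probes separated the animals in these directions. Scan day, ZFY signal and the origin of the animals cannot be told apart here. Spike-ins, control RNAs added to each sample, were low on the arrays of animals 29, 39, 52, 61 and 76, all of days 6 to 9. Their raw mean log2 signal was 5.56 to 7.53 there, against 8.79 to 9.54 on days 4 and 5. Without those animals, 33 members were called higher and 13 lower (24.4% and 25.9% of all probes). Scaling to the 75th percentile gave 55 higher to 10 lower (23.5% and 26.1% of all probes), and with loess over all array pairs the split was 28 to 18 (3922 and 4585 of all 16360 probes). Without the 5 animals with a HOXA9 signal in the control range, all of them scanned on day 5, 31 members were called higher and 21 lower (22.5% and 24.2% of all probes), and the median member change was 0.09, against 0.26 with them.

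The split ran through single complexes. COX6C, a small subunit of complex IV, had a lowest, median and highest value of 15.46, 15.71 and 15.76 in the animals of days 6 to 9 and 13.03, 13.32 and 14.05 in those of days 4 and 5, a change of 2.23 ± 0.12 (SE), adjusted p = 1.66e-12. For ATP5F1, subunit b of the ATP synthase stalk, the values were 9.95, 10.71 and 11.17 against 6.64, 7.68 and 8.68, the largest change of any member at 2.88 ± 0.23 (SE), adjusted p = 2.15e-09. Neither overlapped between the 2 sets of days. COX6B2 (2.24), ATP5O (1.74), NDUFA4 (1.70), NDUFB8 (1.69), COX5A (1.503), MT-CO1 (1.22), UQCRC2 (1.16) and SDHB (1.02) also separated the animals completely.

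Other subunits of the same complexes were lower on days 6 to 9. NDUFB11, an accessory subunit of complex I, had 14.48, 14.74 and 14.92 against 15.36, 15.55 and 15.74, without overlap, a change of -0.80 ± 0.08 (SE), adjusted p = 8.45e-08. NDUFA7 (-0.82), NDUFC2 (-0.54) and ATP5J2 (-0.97) were the other members that separated the animals in this direction. LOC617191 (-0.86), NDUFB3 (-0.81), ATP5S (-0.76), COX7A2L (-0.70) and COX5B (-0.60) were among those called lower with overlapping values. Subunits with little difference between these days included NDUFA1 (0.01), ATP5C1 (0.03), LOC615757 (0.04) and ATP5L (0.09), none of them called.

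By complex, the share called higher was 13 of 18 in complex IV (median 0.70), 4 of 7 in complex III, 2 of 4 in complex II, 13 of 37 in complex I and 7 of 16 in complex V. Called lower were 8 probes of complex I (median of the complex 0.19), 5 of complex V (median 0.11), 2 of complex IV and none of complexes II and III, which had 0 lower at an unadjusted p under 0.05 as well. The level of complex IV was 15.40 to 15.78 on days 6 to 9 and 14.50 to 14.94 on days 4 and 5, with no overlap, while the level of complex V was 14.75 to 15.27 and 14.62 to 15.37.

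**Figure D4:**
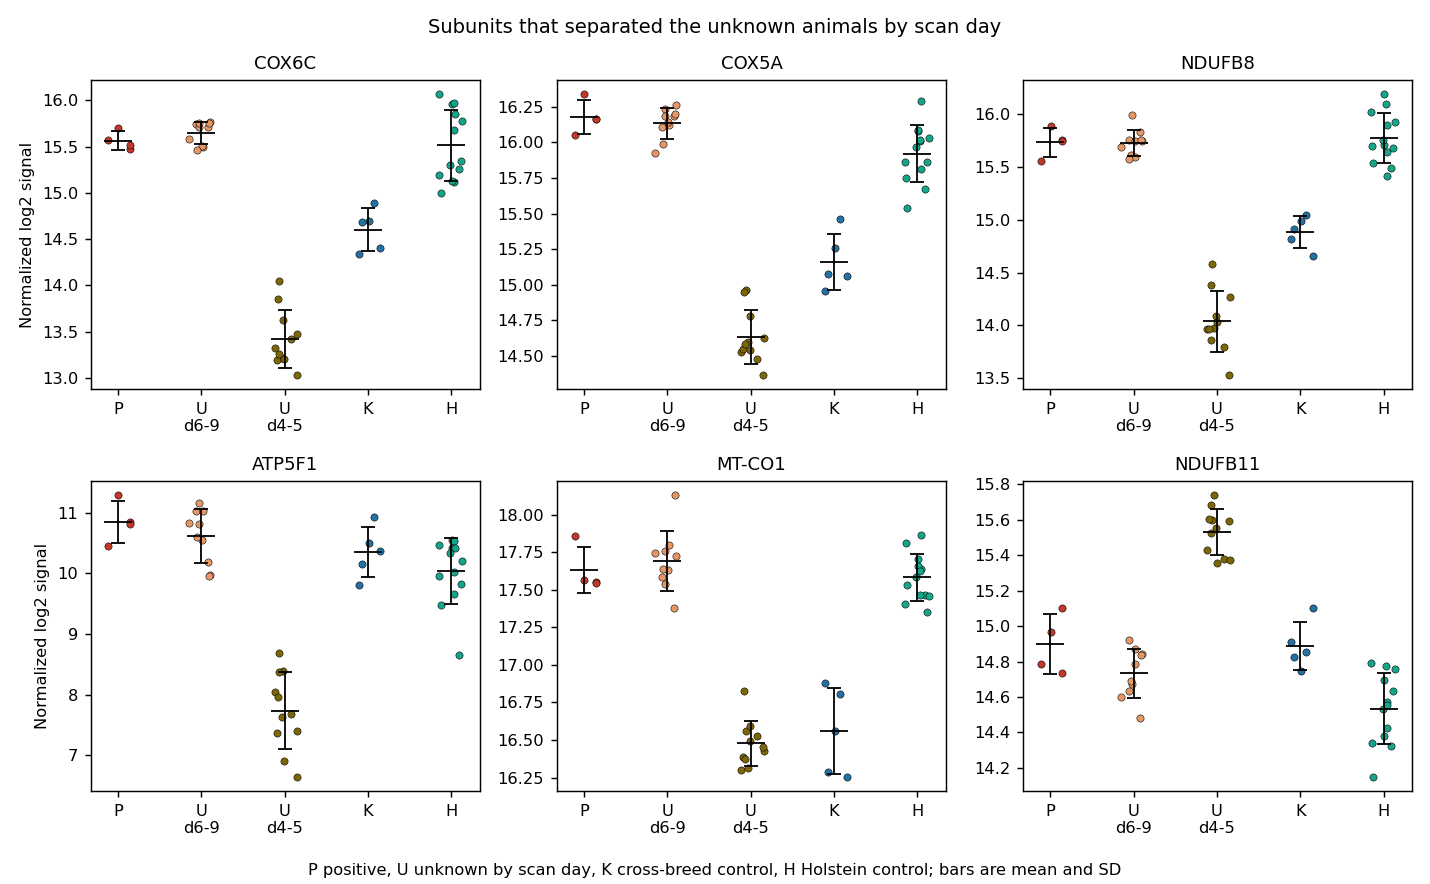
Normalized log2 signal (vertical axes) of 6 subunits, each point 1 animal, with the unknown animals split by scan day beside the other groups (horizontal axis) and bars for mean and SD. COX6C lies at 13.03 to 14.05 on days 4 and 5 and at 15.46 to 15.76 on days 6 to 9, and NDUFB11 runs the other way, from 15.36 to 15.74 to 14.48 to 14.92.

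No member was called between the positive and the unknown animals. In limma 0 of 82 passed an adjusted p of 0.05, where 0.0489% of all tested probes were called in either direction. An unadjusted p under 0.05 was found for 11 of the 82 and for 3888 of all 16360 tested probes. The median change of the members was 0.20, and the largest was that of ATP5F1, 1.74 ± 0.76 (SE), adjusted p = 0.178. NDUFB8 (0.89 ± 0.44 (SE), adjusted p = 0.216), NDUFA4 (0.91 ± 0.44 (SE), adjusted p = 0.205), COX5A (0.83 ± 0.39 (SE), adjusted p = 0.195) and ATP5O (0.98 ± 0.47 (SE), adjusted p = 0.201) had changes near 1 with wide errors, and these genes also separated the unknown animals by scan day. Against the 10 unknown animals of days 6 to 9 alone, member changes ran from -0.19 to 0.45 with a median standard error of 0.13, 2 had an unadjusted p under 0.05, and the smallest adjusted p was 0.485.

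The positive animals shared slides 9 and 10 with 4 unknown animals. Within these slides 0 of 82 members and 0 of all 16360 tested probes were called (limma, slide as a fixed block). Among those 4, animals 50 and 79 had 97.3% and 40.2% of gene spots well above background, the highest and lowest of all arrays. An unadjusted p under 0.05 was found for 3 members and for 1873 of all tested probes, and the median member change was 0.09. The 5 unknown animals with HOXA9 in the control range differed from the positive animals in 51 members called higher and 9 lower, with 30.1% and 33.0% of all tested probes and a median member change of 0.58. LOC517777, the f-like probe that missed the filter, was well above background on all 4 positive arrays, 6 of 21 unknown arrays (5 of the 10 of days 6 to 9 and 1 of the 11 of days 4 and 5) and on no control array. Its log2 signal was 5.27, 5.43, 5.31 and 5.05 in the positive animals and 2.58, 2.58, 2.54, 2.56 and 3.76 in the cross-breed controls.

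Genes that work beside or in the respiratory chain but lie outside the rule were taken from lists of mitochondrial pathways. Only counts, medians and single values are given. Their counts stand against the shares of all tested probes given above, which for calls higher and lower were 25.5% and 26.3% in positive animals against cross-breed controls, 23.9% and 24.4% in Holsteins against cross-breed controls, and 17.5% and 18.7% in positive animals against Holsteins. Fatty acid oxidation feeds electrons to the chain through NADH and the electron transfer flavoproteins. Its probes were called higher for 14 of 16 in positive animals against cross-breed controls (median log2 change 0.70), for 3 of 16 with 1 lower in Holsteins against the same controls (median -0.19), and for 13 of 16 in positive animals against Holsteins (median 0.89). CPT1B, which admits long-chain fatty acids to the muscle mitochondrion, changed by 0.62, -0.37 and 0.99 in the 3 comparisons, and ACADVL, which starts their oxidation, by 0.43, -0.29 and 0.73, with the Holstein changes not called. HADHB, the thiolase part of the trifunctional protein, changed by 0.84, -0.18 and 1.03 in the same way.

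The mitochondrial genome had 12 more probes whose names the rule did not cover. In positive animals against cross-breed controls 11 of them were called higher (median 1.26), in Holsteins 7 (median 0.62), and in positive animals against Holsteins 7 higher and 1 lower (median 0.56). The ATP synthase subunits encoded there, ATP6 and ATP8, changed by 0.86 and 1.80 in positive animals against cross-breed controls. Cytochrome b, the only subunit of complex III encoded there, changed by 1.17, and the complex I subunit ND5 by 1.35. ND6 was called lower in positive animals against Holsteins, at -0.69.

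Probes of the tricarboxylic acid cycle were called in both directions. Of 15 probes, 5 were called higher and 2 lower in positive animals against cross-breed controls (median 0.25), and in Holsteins 6 higher and 5 lower (median -0.05). FH (fumarase) changed by 0.80 and SUCLG1 (succinyl-CoA ligase) by 0.50 in the positive animals, while DLST, of the oxoglutarate dehydrogenase complex, changed by -1.17. Electron and ATP carriers had 2 of 9 called higher and 1 lower in positive animals against cross-breed controls (median 0.01). SLC25A4 (the muscle ATP carrier) was called higher at 1.83 and VDAC3 lower at -0.46. CYC1 (cytochrome c1), called higher at 0.76, belongs to complex III but was not covered by the rule. Assembly factors outside the rule had 3 higher and 3 lower of 9.

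Regulators of mitochondrial content had 6 of 11 probes called higher in positive animals against cross-breed controls (median 0.54) and 4 of 11 in Holsteins (median 0.32). PPARGC1A, a coactivator that drives mitochondrial genes, was called higher by both of its probes in both comparisons, at 1.49 and 1.81 in positive animals and 1.68 and 2.65 in Holsteins. ESRRG, a nuclear receptor of oxidative muscle, changed by 2.27 in positive animals and was not called in Holsteins (0.17). In positive animals against Holsteins, 2 of 11 were called higher, ESRRG (2.10) and ESRRA (0.53).

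Markers of fibre type moved with some of these comparisons. Of 8 fast fibre probes, 7 were called lower in positive animals against cross-breed controls (median -4.38) and 7 lower and 1 higher against Holsteins (median -5.35), and all 8 were well above background on all 4 positive arrays. The log2 of the summed fast fibre signal was 17.06, 14.90, 15.50 and 15.87 in S21, S54, S56 and S57, and 20.14, 19.87, 19.38, 19.75 and 19.11 in K7, K8, K10, K11 and K12. In Holsteins it ran from 19.75 to 20.56 and in unknown animals from 14.51 to 19.75 (14.51 to 19.27 on days 6 to 9 and 16.19 to 19.75 on days 4 and 5), so the positive animals were below both control sets. In Holsteins against cross-breed controls 4 fast fibre probes were called higher and 2 lower (median 0.50).

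Slow fibre probes were called higher for 5 of 9 and lower for 1 in positive animals against cross-breed controls (median 0.97), and for 4 with 2 lower in Holsteins (median 0.50). MYH7, the slow myosin heavy chain, changed by 0.97 and 0.75, and TNNT1, slow troponin T, by 1.097 and 0.61. TPM3 was the probe called lower in positive animals, at -0.95. In Holsteins those called lower were a probe of ATP2A2 (-1.75) and TPM3 (mean 11.20 against 12.59 in cross-breed controls). The log2 of the summed slow fibre signal was 20.37, 20.26, 20.65 and 20.38 in the positive animals and 19.92, 19.72, 19.37, 19.76 and 19.10 in the cross-breed controls, with no overlap. Holsteins ran from 20.001 to 20.48, inside or near the positive range. The part of fibre type in the respiratory chain results was not tested.

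Markers of other cells differed as well. Of the 4 tested adipocyte probes, 3 were called higher in positive animals against cross-breed controls and 4 in Holsteins, FABP4 by 5.23 and 5.02, against a control group in which 3 of 5 arrays measured it well above background. The log2 of the summed adipocyte signal ran from 13.35 to 13.76 in positive animals, 11.17 to 12.25 in cross-breed controls and 12.34 to 13.88 in Holsteins. LEP (leptin), a defining adipocyte marker, did not pass the filter, and its mean log2 signal was 3.34 ± 0.28 in positive animals (SD, n = 4), 4.32 ± 0.65 in cross-breed controls (SD, n = 5) and 3.21 ± 0.44 in Holsteins (SD, n = 13). Endothelial probes were higher for 4 of 5 in positive animals against cross-breed controls and for 4 of 5 against Holsteins. Fibroblast probes were called lower for 3 of 6 and higher for 1 in positive animals against cross-breed controls (median -0.76) and lower for 5 of 6 against Holsteins (median -2.46), while in Holsteins against cross-breed controls 6 of 6 were called higher (median 1.36). COL1A1 changed by -2.36, -3.28 and 0.92 in these comparisons, and a probe of DCN (decorin) was the one called higher in positive animals against cross-breed controls, at 1.63. One of 4 tested leukocyte probes was called lower against cross-breed controls, and HBB, the only tested erythroid probe, was called higher at 1.01. The part of these cells in the member changes was not tested.

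**Figure D5:**
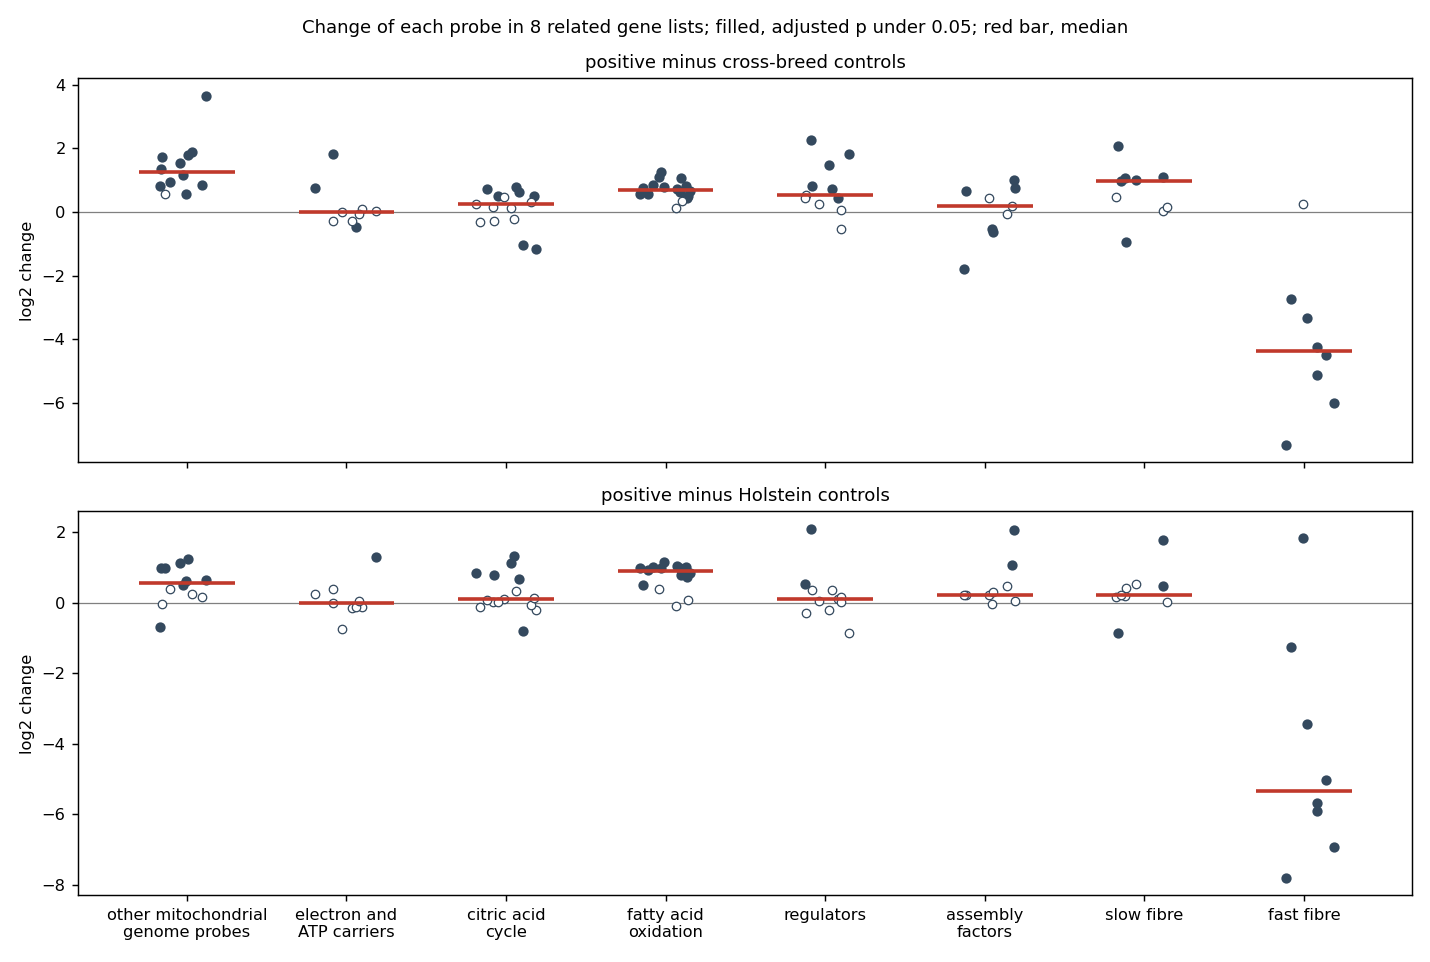
Log2 change (vertical axes) of each tested probe in 8 lists of related pathways and fibre markers (horizontal axis), for positive animals against each control set, with called probes filled and list medians as bars. Fatty acid oxidation has medians of 0.70 and 0.89 against cross-breed and Holstein controls, and fast fibre probes have -4.38 and -5.35.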

How the data were processed

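RNA from biceps brachii of 43 animals was hybridised to single-colour (Cy3) Agilent bovine arrays, 1 array per animal. Per the file headers, the authors deposited scanner output with a processed intensity for each spot, background-corrected and not yet normalized between arrays. A value table of normalized intensities, also deposited by the authors, followed the same arrays after their own normalization. It was put on the log2 scale and served as an alternative.

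The log2 processed intensities of the 42990 gene spots were normalized by cyclic loess over all arrays (limma 3.58.1 in R 4.3.3, 3 iterations), and spots of a probe were averaged, which gave 21475 probes. Probes with a log2 signal under 4 on at least 30 arrays were removed, which left 16360. Each comparison was a limma linear model with moderated variance on the animals of its 2 groups, with Benjamini-Hochberg adjustment over all 16360 probes. A probe was called at an adjusted p under 0.05. The procedure was tested on simulated data. Log2 changes are compressed for saturated spots, which occurred on at most 2 arrays for 10 member probes.

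Groups came from the submitters' labels and the study's methods, and replicate numbers followed accession order and pair no samples. The members, gene lists, comparisons and label checks were chosen with earlier results of these data known. Every member could be named. Subunits with known roles (catalytic cores and tissue isoforms) were given, 1 of them apart that is not reported here, as were up to 3 called members with the largest change in each direction of a comparison. COX6A1 and the NDUFAF assembly factors were looked for and not found by name on the array. Gene names are those of the array design, and a RefSeq gene table matched 65 members by accession and 6 by gene ID. Slide, scan day, scanner and software version were read from file headers. Array number limits precision, and p-values measure the spread between these animals. Alternatives were other normalizations and background corrections, other filters, a common fit, random effects of slide or scan day, single animals left out, and subsets of the unknown animals. The comparisons of positive with Holstein animals and of scan days within the unknown animals were chosen after seeing the data.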

Additional observations from a re-analysis of the deposited data

Results flagged for a closer look

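Within the positive and the cross-breed control group, 86 checks were made for an animal far from the rest of its group. Of these 1 stood out, where chance marks about 1 in 20. The unknown and Holstein animals were not checked in this way. The complex V level of K8 was 14.22 among the cross-breed controls, and the other 4 ranged from 14.45 to 14.50.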

How the results depend on the processing

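Counts below are called members of the 82 tested unless another number is given, and log2 values were shifted so that the median of all probes matched that of the reported analysis. Calls were tested before that shift. Scaling to the 75th percentile takes the same amount from every probe of an array. Its shifted changes therefore match the unnormalized ones by construction, and the match is no separate result. Leaving out each animal of a group of 4 or 5 in turn gave 46 to 59 calls in positive animals against cross-breed controls, 46 to 51 in Holsteins against cross-breed controls, 19 to 22 in unknown animals against cross-breed controls, 0 in positive against unknown animals and 12 to 21 in positive animals against Holsteins. Without normalization between arrays the counts were 4, 28, 13 and 3 in positive, Holstein and unknown animals against cross-breed controls and in positive animals against Holsteins. The 13 in unknown animals were 2 higher and 11 lower, where 0.966% and 39.3% of all probes were. For positive animals against Holsteins the count was 13 with 75th percentile scaling, 35 with quantile normalization (34 higher and 1 lower, where 19.2% and 24.8% of all probes were), 36 with loess on every pair of arrays, 11 in a common fit and 15 with scan day as a random effect (all higher, where 14.4% of all probes were higher and 14.7% lower). For positive against unknown animals it was 1 of 84 with no filter and 1 of 83 with probes kept by the scanner's above-background call, in both LOC517777, which the usual filter leaves out and which was well above background on all 4 positive but 6 of 21 unknown arrays, so that the second filter admitted it through the group where it was high. It was 2 in a common fit, where 4.24% of all probes were called higher and 4.07% lower, and 60 with the unknown animals whose HOXA9 signal lay in the control range. For unknown animals against cross-breed controls it was 59 without the animals of low ZFY signal, and 39 and 43 with HOXA9 inside and outside the control range. The 43 were 42 higher and 1 lower, where 15.7% and 15.9% of all probes were. The cause was not tested for any of these, apart from the change in animals itself.

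The median member change in Holsteins against cross-breed controls was 0.78 with 75th percentile scaling and 0.78 unnormalized. In positive animals against Holsteins it was -0.0037 in both, and 0.41 after normexp background correction. In unknown animals against cross-breed controls it was 0.53 without low ZFY signal and -0.13 with HOXA9 in the control range. In positive against unknown animals it was 0.013 without low ZFY signal, 0.60 with HOXA9 in the control range and 0.028 within shared slides. Between scan days of the unknown animals it was 0.50 with 75th percentile scaling, 0.50 unnormalized and 0.061 with loess on every pair of arrays. With 75th percentile scaling, group levels relative to all animals were 0.47, 0.39, 0.59, 0.53 and 0.20 for complexes I to V in positive animals, -0.31 and -0.50 for complexes II and IV in cross-breed controls and 0.23 for complex II in Holsteins. With loess on every pair they were -0.20, 0.15 and 0.19 for complexes II, III and IV in positive animals and 0.025 for complex II in cross-breed controls.

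Single-gene values turned sign 36 times where the gene was called in at least 1 of the 2 analyses, 14 of them under loess on every pair of arrays, 8 without normalization, 7 under 75th percentile scaling and 7 with other sets of unknown animals. Loess on every pair gave, in positive animals against cross-breed controls, NDUFV1 (-0.42), NDUFV2 (-0.49), UQCRC1 (-0.23), COX4 (-0.39), ATP5B (-0.39), ATP5C1 (-0.18) and LOC617191 (0.79), with SDHA at 0.30 under 75th percentile scaling. For positive animals against Holsteins it gave NDUFA4 (-0.36), SDHA (-0.40), SDHB (-0.26), COX4 (-0.26), COX7A1 (-0.14) and ATP5B (-0.17). In Holsteins against cross-breed controls, 75th percentile scaling gave NDUFV1 0.18, SDHA 0.14, ATP5A1 0.11, ATP5G2 0.063 and ATP5B 0.52. No normalization gave NDUFV1, SDHA, ATP5A1 and ATP5G2 the same values by construction, and these turns were counted under both settings. No normalization also gave SDHC 0.29, UQCRC1 0.24 and COX5B 0.37. Before the shift all of these unnormalized changes were negative, and their calls without normalization were calls lower. In unknown animals against cross-breed controls, leaving out animals of low ZFY signal gave NDUFS1 0.34 and NDUFB8 0.83, and the animals with HOXA9 in the control range gave NDUFA4 -0.70, UQCRC2 -0.78, COX5A -0.69, ATP5B -0.44 and ATP5O -0.98. Between scan days, NDUFV2 was 0.13 under 75th percentile scaling and unnormalized, and COX4 -0.19 with loess on every pair. In 193 more of 3204 values the sign turned with the gene called in neither analysis, 17 of them with 1 animal left out. Among these, SDHA ran from -0.11 to 0.0069 in positive animals against cross-breed controls, and COX4 from -0.015 to 0.14 and ATP5B from -0.12 to 0.050 in Holsteins against cross-breed controls.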

Other observations

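General muscle genes differed between the groups in the same comparisons. Of 10 muscle probes, 3 were called higher and 7 lower in positive animals against cross-breed controls (median log2 change -1.01), where 25.5% and 26.3% of all tested probes were. ACTA1, skeletal actin, changed by 1.39 and MB, myoglobin, which stores oxygen in oxidative fibres, by 0.80, while the myogenic factors MYOD1 and MYF6 changed by -1.75 and -1.50 and PYGM, muscle glycogen phosphorylase, by -1.69. In Holsteins against the same controls, 2 were called higher and 6 lower (median -0.53), with MYOD1 at -1.47 and MYF6 at -0.92.

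Between the unknown animals of scan days 6 to 9 and of days 4 and 5, where 26.1% of all tested probes were called higher and 29.5% lower, fatty acid oxidation had 7 of 16 probes called higher and 1 lower (median 0.42), and the other probes of the mitochondrial genome 6 of 12 higher (median 0.42). Slow fibre probes were called higher for 4 of 9 (median 0.63), and fast fibre probes lower for 3 of 8 and higher for 1 (median -2.24). In the 5 unknown animals with a HOXA9 signal in the control range, the level of complex IV was 14.50 to 14.77 and that of complex V 14.62 to 15.05.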
